A study of Homo sapiens with 4 samples.

Results

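The genes described here are MYC, its family and dimer partners, and the nucleolar genes that build ribosomes. There were 42 genes, chosen by name from general knowledge of their function, with earlier results of these data known. All of them matched an identifier among the 58233 in the count table. They comprise 7 genes of the MYC network (MYC, MYCN, MYCL, MAX, MXD1, MXD4 and MXI1) and 35 nucleolar genes. Messenger RNA was sequenced from MIA PaCa-2 and PANC-1, established human pancreatic cancer cell lines labelled WT for genotype, after 24 h with cannabichromene (CBC, a cannabinoid of the cannabis plant) or PBS. The CBC concentration was 35 μM for MIA PaCa-2 and 30 μM for PANC-1. These doses come from the study's methods, which speak of a vehicle control where the labels name PBS. Each condition had 1 library, 4 in all. A difference within a line therefore has no replicate check, and dose and cell line cannot be told apart in a comparison of the lines.

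MYC proteins bind DNA as dimers with MAX at a short motif called the E-box and activate transcription there. The MXD proteins, MXD1, MXD4 and MXI1 among them, pair with MAX at the same motif and recruit repressors. Genes of the nucleolus, where RNA polymerase I makes ribosomal RNA and small nucleolar ribonucleoproteins (snoRNPs) modify it for assembly into subunits, are a long-known group of MYC targets.

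The E-box itself is shown first, because it is the sequence that the network and many of the nucleolar genes share. RefSeq promoter windows on GRCh38.p14, reaching from 250 bases before to 50 bases after a transcription start, were searched for CACGTG, a palindrome that reads the same on both strands. Of the 35 nucleolar genes, 29 had a window, and 15 of them (51.7%) held the motif. It was in 12.5% of the 11033 genes with a window among those expressed in either line, and in 7.26% of all 35116 windows. Among ribosome biogenesis genes outside the 35, those holding it were 1 of 10 RNA polymerase I genes, 1 of 8 snoRNP genes (12.5%), 12 of 40 small subunit genes and 14 of 44 large subunit genes (31.8%). In the MYC network it was found in 1 of 6 genes (16.7%), MXD4. The motif lay close to the start of the nucleolar genes, with 14 of 15 matches (93.3%) inside 50 bases of it, against 36.9% of the 2821 matches in all windows. A match is a description of letters and no binding was measured. Below are 30 bases around the motif, read in the direction of each gene, with the E-box in capitals. The first 8 are nucleolar genes of different roles, and MXD4, whose match lay farther upstream, is given as a contrast. These were picked after their values had been seen.
UTP20 (chr12:101280083-101280112, plus strand): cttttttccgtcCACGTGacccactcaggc
UTP4 (chr16:69132621-69132650, plus strand): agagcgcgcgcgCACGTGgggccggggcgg
NAT10 (chr11:34105602-34105631, plus strand): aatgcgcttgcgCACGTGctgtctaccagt
RRP9 (chr3:51941892-51941921, minus strand): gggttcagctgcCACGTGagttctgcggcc
FBL (chr19:39846356-39846385, minus strand): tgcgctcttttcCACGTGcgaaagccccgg
PES1 (chr22:30591880-30591909, minus strand): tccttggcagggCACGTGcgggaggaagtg
DDX21 (chr10:68956604-68956633, plus strand): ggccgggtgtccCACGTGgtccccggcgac
LYAR (chr4:4290068-4290097, minus strand): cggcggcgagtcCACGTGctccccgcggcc
MXD4 (chr4:2262330-2262359, minus strand): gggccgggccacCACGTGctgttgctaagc

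In UTP20, UTP4 and NAT10 the motif ended 4, 10 and 9 bases before the start, and in RRP9 it spanned the start. In FBL and PES1 it began 6 and 13 bases after the first base of the transcript. In DDX21 and LYAR it ended 25 and 58 bases upstream, and in MXD4 232 bases upstream. Promoters of the genes for cytosolic ribosomal proteins, the final products that the nucleolus assembles, held it in 6.35% of cases. A list of MYC targets outside the nucleolus held it in 14 of 26 (53.8%).

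**Figure D1:**
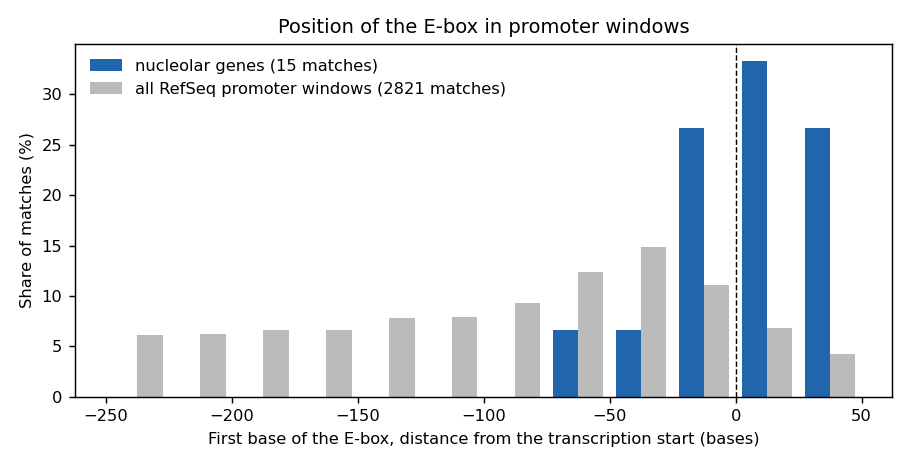
Position of the first base of the E-box in RefSeq promoter windows, in bases from the transcription start (x axis), as a share of matches in percent (y axis), for the 15 matches in nucleolar genes (blue) and the 2821 matches in all windows (grey). Matches in the nucleolar genes lie between -64 and 36, while matches overall spread across the window.

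The libraries held 21742775 to 27903667 counts on genes, so 3 counts, the most that a count of 0 allows, were 0.110 to 0.135 CPM (a gene's counts scaled to library size). Of 8 epithelial and pancreatic cancer line markers, 5 and 6 reached 1 CPM in the PBS and CBC libraries of MIA PaCa-2 and all 8 did in PANC-1. KRT8, KRT18, KRT19 and VIM were high in all 4 libraries, while in MIA PaCa-2 CDH1 was at 0 in both libraries and EPCAM at 0 or 0.04 CPM. KRT7 was low, at 0.09 CPM with PBS and 2.10 with CBC in MIA PaCa-2 and at 2.15 and 2.12 CPM in PANC-1. CDH1 was at 1.41 and 4.79 CPM in PANC-1. S100A4 was lower with CBC, at 389 and 82.6 CPM in MIA PaCa-2 and at 94.1 and 42.3 CPM in PANC-1. Markers of leukocytes summed to at most 1.17 CPM, of endothelium to 2.20 CPM and of acinar cells to 0.04 CPM. Fibroblast markers summed to 47.1 to 368 CPM almost wholly through a collagen gene, COL1A2 in MIA PaCa-2 and COL1A1 in PANC-1, with DCN and LUM at 0 in every library. Mitochondrial genes took a smaller share of the counts with CBC, 3.86% against 5.81% in MIA PaCa-2 and 2.42% against 4.63% in PANC-1. Their part in the values that follow was not tested.

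Within a line, genes with 1 CPM or more in the PBS or the CBC library were examined, and a log2 fold change (CBC against PBS) beyond 1 in either direction was counted as past the fold. Within-line ranges in parentheses are exact 95% intervals (Clopper-Pearson) of the ratio of 2 counts and cover counting error only. Levels are given for PBS and then CBC, with MIA PaCa-2 before PANC-1, and a pair of values in parentheses after them holds the log2 fold changes in that order. Across the lines, CBC was tested against PBS by quasi-likelihood in edgeR, blocking on the line, and adjusted p-values are Benjamini-Hochberg values over the 16381 genes in that test. The lines served as its replicates, so a change that differed between them counted as spread, and a gene changed in a single line could fail it. The estimate of spread also borrowed from all genes tested, so an SE is not that of a single gene's values alone. In bulk RNA of this kind, fewer cells expressing a gene and less RNA per cell cannot be told apart.

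Few of the genes were past the fold. All were higher, close to the share of all genes that were higher but below the share in either direction. They were MYC network genes and RRP12, which processes precursors of the small subunit. Of the 42 genes, 41 were examined in each line. In MIA PaCa-2 cells 4 were past the fold, all higher (MYC, MYCL, MXD1 and RRP12), beside 20.5% of the 14001 genes examined in either direction and 11.5% higher. In PANC-1 cells 3 were past the fold, all higher (MYCL, MXD1 and MXI1), beside 14.7% of 14091 genes in either direction and 7.71% higher. MYCL was examined in PANC-1 only through its CBC library, where it was high, so the filter itself favoured a difference, and asking for 1 CPM in both libraries leaves 2 genes past the fold. None was past the fold and lower in either line, beside 8.97% and 7.03% of the genes examined. Across both lines, 2 of 41 genes, MYCL and MXD1, passed the edgeR quasi-likelihood test and rose. Of all genes tested, 2.26% passed it higher, 2.45% lower and 4.71% in either direction.

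MYC (ENSG00000136997, chromosome 8, 127735434 to 127742951) encodes the most widely expressed factor of its family. Its counts were 3670 with PBS and 9528 with CBC in MIA PaCa-2, and 1465 and 1678 in PANC-1, which are 165, 385, 64.4 and 61.4 CPM. The log2 fold change was 1.22 (1.17 to 1.28) in MIA PaCa-2 but -0.07 (-0.17 to 0.03) in PANC-1. MYC was thus 2.33 times its control level in the first line and not distinguishable from it by counting error in the second, where scaling by library totals put the change at 0.00. The control level in MIA PaCa-2 was already above both PANC-1 levels. Across lines the log2 fold change was 0.59 with an SE of 0.31, and MYC did not pass the edgeR quasi-likelihood test (adjusted p = 0.332).

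MYCL (ENSG00000116990, chromosome 1, 39895428 to 39902256), a family member better known from lung cancer, had 86 and 550 counts in MIA PaCa-2 and 8 and 35 counts in PANC-1. These are 3.87, 22.2, 0.35 and 1.28 CPM, so the PANC-1 levels were near 1 CPM and the gene was examined there only through its CBC library. The log2 fold changes were 2.50 (2.19 to 2.87) and 1.65 (0.73 to 3.18), the wide second interval coming from the 8 counts of the control. MYCL rose across both lines, with a log2 fold change of 2.30, an SE of 0.44 and an adjusted p of 0.0310 in the edgeR quasi-likelihood test. Per kilobase of transcript it remained far below MYC in every library, at 6.31 against 104 CPM per kb where it was highest. MYCN, the member known from neuroblastoma, had 0 counts in all 4 libraries, which allows at most 0.110 to 0.135 CPM.

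MAX (ENSG00000125952, chromosome 14, 65006174 to 65102695) is the shared partner of both the activators and the repressors. It was at 53.3 CPM with PBS and 104 with CBC in MIA PaCa-2 and at 26.7 and 42.4 CPM in PANC-1, higher with CBC in each line. The log2 fold changes of 0.96 (0.86 to 1.06) and 0.66 (0.52 to 0.81) stayed short of 1. MAX did not pass the edgeR quasi-likelihood test (log2 fold change 0.82, SE 0.23, adjusted p = 0.0882), although it did in DESeq2 and without the filter on low counts. Of its exon bases, 26.0% overlap genes on the opposite strand. The library kit keeps strand, but whether the counting used it is not given in the sources used here. Reads in the overlap may therefore have been lost, or reads of the overlapping genes included. The same limit holds for POLR1C (18.3%), NOP14 (20.7%) and NOP16 (18.6%), which are described below.

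MXD1 (ENSG00000059728, chromosome 2, 69897688 to 69942945), a repressor usually raised when cells stop dividing and differentiate, had 128 and 927 counts in MIA PaCa-2 and 745 and 2010 counts in PANC-1. Its levels were 5.76, 37.5, 32.8 and 73.6 CPM, so that the CBC library of MIA PaCa-2 reached about the control level of PANC-1. The log2 fold changes were 2.69 (2.43 to 2.98) and 1.16 (1.04 to 1.29). MXD1 rose across both lines, with a log2 fold change of 1.91, an SE of 0.39 and an adjusted p of 0.0364 in the edgeR quasi-likelihood test. With DESeq2 size factors in the same test MXD1 no longer passed.

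MXI1, a related repressor, was at 6.88 CPM with PBS and 11.6 with CBC in MIA PaCa-2 and at 12.5 and 42 CPM in PANC-1. Its log2 fold change was 0.75 (0.47 to 1.05) in the first line and 1.74 (1.56 to 1.94) in the second. Among the network genes of the 42, MXI1 alone had the higher value in PANC-1. MXI1 did not pass across lines (1.27, SE 0.33, adjusted p = 0.0770, edgeR quasi-likelihood test). MXD4 was at 35.8, 57.0, 27.0 and 29.6 CPM, with log2 fold changes of 0.67 (0.54 to 0.80) and 0.13 (-0.02 to 0.29) and an adjusted p of 0.402 in that test. The 3 repressors thus had values above 0 in both lines, largest in MXD1 for MIA PaCa-2 and in MXI1 for PANC-1.

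The MXD genes were also summed per kilobase of transcript and set against the MYC family. The sum of MXD1, MXD4 and MXI1 stood at 0.270 times the MYC family in the PBS library of MIA PaCa-2 and at 0.226 times with CBC. In PANC-1 the ratio was 0.946 with PBS and 1.96 with CBC. The ratio depends on the repressors counted. With MXD3 and MNT, MAX partners outside the 42 genes, in the sum it was 0.914 and 0.408 in MIA PaCa-2 and 2.0 and 2.9 in PANC-1, so that the PBS library of PANC-1 was above 1 as well. MYC relative to MAX was 1.67 and 2.0 in MIA PaCa-2, and 1.30 and 0.782 in PANC-1. MXD1 made up 8.46% and 27.2% of the MXD sum in MIA PaCa-2 and 35.8% and 40.1% in PANC-1. These ratios are of RNA in single libraries, and no protein was measured here.

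**Figure D2:**
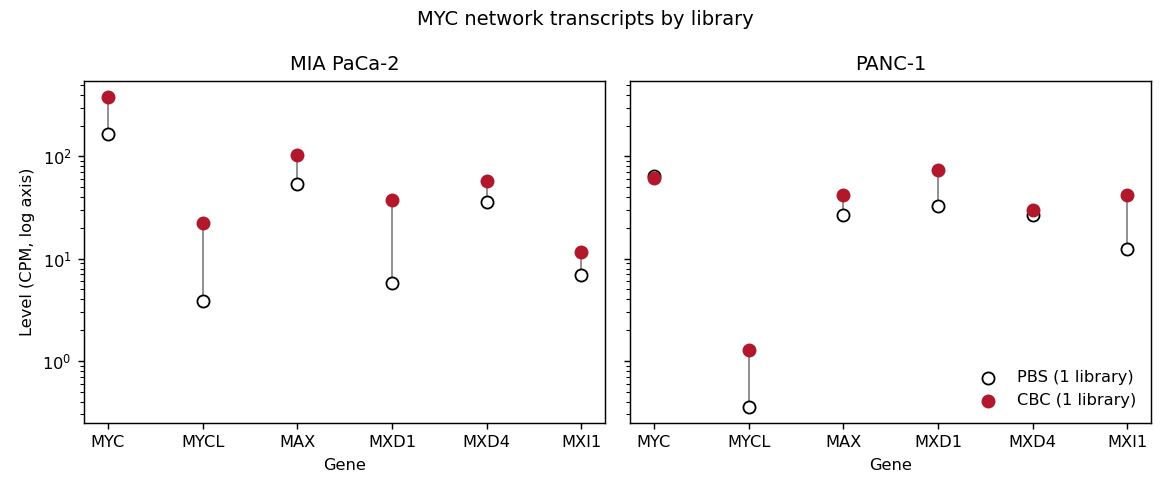
Levels of the 6 detected MYC network genes (x axis) in CPM on a log axis (y axis), for the PBS library (open circles) and the CBC library (red) of each line, joined by lines. MYC goes from 165 to 385 CPM in MIA PaCa-2 and is near 60 CPM in both PANC-1 libraries, and MXD1 is higher with CBC in both lines.

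Other genes of the network gave values in both directions. MXD3, an MXD family member associated with proliferating cells, fell across lines (23.7 and 5.62 CPM in MIA PaCa-2, 12.1 and 5.20 CPM in PANC-1, log2 fold change -1.65, SE 0.36, adjusted p = 0.0439, edgeR quasi-likelihood test). MNT, a MAX partner that represses, was at 34.8 and 72.3 CPM and at 34.8 and 53.9 CPM, with an adjusted p of 0.0935 in the same test. Of the 6 network genes outside the 42, MXD3 alone passed, beside 4.71% of all genes tested. The change was higher in MIA PaCa-2 for 2 of the 6.

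The 35 nucleolar genes were expressed in all 4 libraries, and their values with CBC leaned lower in PANC-1 than in MIA PaCa-2. The lowest gene in each library was PPAN and the highest was NPM1 in MIA PaCa-2 and FBL in PANC-1. Together they took 0.952% of all counts with PBS and 0.967% with CBC in MIA PaCa-2, and 0.835% and 0.662% in PANC-1. Without NPM1 and NCL the shares were 0.574% and 0.608%, and 0.602% and 0.480%. The median log2 fold change was -0.04 in MIA PaCa-2 cells, with 19 of 35 genes below 0, and -0.38 in PANC-1 cells, with 32 of 35 below 0. Over all genes examined, the medians were -0.01 and 0.02, and 50.9% and 48.6% of genes were below 0. Scaling by library totals turned the MIA PaCa-2 median to 0.03 with 17 genes below 0 and left 30 below 0 in PANC-1. By counting error, 14 genes lay above 0, 17 below and 4 on neither side in MIA PaCa-2, where 37.3% of all genes lay above and 39.1% below. In PANC-1 the counts were 2, 30 and 3, where 37.3% of all genes lay above and 35.9% below.

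Across both lines 0 of the 35 passed the edgeR quasi-likelihood test, beside 4.71% of all genes tested. At an unadjusted p under 0.05 there were 4 (UBTF, BOP1 and NCL with values below 0 and RRP12 above), which is 11.4% beside 20.9% of all genes tested. In DESeq2 1 of them, UBTF, passed, and without the filter on low counts 1, RRP12, passed in edgeR.

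RNA polymerase I, its cofactors and TCOF1, the treacle protein that links the polymerase to the processing of its transcript, were represented by 6 genes. UBTF, which keeps the ribosomal DNA open for the polymerase, had the lowest mean change of the 6. It was at 169 CPM with PBS and 115 with CBC in MIA PaCa-2 and at 189 and 113 CPM in PANC-1. The log2 fold changes were -0.56 (-0.63 to -0.49) and -0.74 (-0.81 to -0.68), or -0.65 across lines with an SE of 0.20 (adjusted p = 0.118, edgeR quasi-likelihood test). RRN3, which brings the polymerase to the promoter, had the highest mean change, at 77.8 and 95.8 CPM and at 123 and 151 CPM (0.30 and 0.29). RRN3 has 3 annotated pseudogenes whose own counts reached 38.4% of those of the parent gene, so its value is uncertain. The catalytic subunits POLR1A and POLR1B and the shared subunit POLR1C ranged from -0.12 to 0.51 in MIA PaCa-2 and from -0.31 to -0.07 in PANC-1. TCOF1, named after its values were seen, was at 427 CPM with PBS and 450 with CBC in MIA PaCa-2 and at 234 and 133 CPM in PANC-1 (0.07 and -0.81). UBTF and POLR1A had values below 0 in both lines, and RRN3 alone above 0 in both.

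Box C/D snoRNPs place methyl groups on ribosomal RNA, and 3 of their 4 genes had values of the same sign in both lines. NOP56, a core scaffold protein, was at 426 CPM with PBS and 381 with CBC in MIA PaCa-2 and at 322 and 172 CPM in PANC-1, log2 fold changes of -0.16 (-0.20 to -0.12) and -0.90 (-0.95 to -0.85). Its partner NOP58 was at 222 and 287 CPM and at 232 and 129 CPM, with log2 fold changes of 0.37 (0.32 to 0.43) and -0.85 (-0.91 to -0.79). The paired scaffold genes thus had the lower value in PANC-1 by far, and NOP56 had the lowest log2 fold change of all 35 in that line.

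FBL, the methyltransferase of these particles, was at 290 CPM with PBS and 239 with CBC in MIA PaCa-2 and at 2004 and 1539 CPM in PANC-1. The log2 fold changes were alike, -0.28 (-0.33 to -0.23) and -0.38 (-0.40 to -0.36). What stood out was the control level, 6.90 times higher in PANC-1, where the same ratio was 0.361 to 1.82 for the other 34 nucleolar genes with a median of 0.761. RRP9, the protein that marks the U3 particle, was at 75.4 and 121 CPM and at 43.8 and 46.7 CPM (0.68 and 0.09). None of the 4 passed across lines (adjusted p of 0.243 to 0.719, edgeR quasi-likelihood test).

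Box H/ACA snoRNPs turn uridine into pseudouridine. Their catalytic subunit DKC1, known from dyskeratosis congenita, was at 348 CPM with PBS and 277 with CBC in MIA PaCa-2 and at 267 and 227 CPM in PANC-1 (-0.33 and -0.24). The core protein NHP2 was at 141 and 116 CPM and at 110 and 94.5 CPM (-0.28 and -0.22), with 28% of its exon bases opposite another gene. These were 2 of the 3 nucleolar genes whose value was not the higher in MIA PaCa-2. GAR1, also a core protein, was at 38.0 and 51.3 CPM and at 41.2 and 35.9 CPM (0.43 and -0.20), and the chaperone NOLC1 was at 366 and 326 CPM and at 439 and 308 CPM (-0.16 and -0.51). The adjusted p-values of the 4 were 0.365 to 0.831 in the edgeR quasi-likelihood test.

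The 7 genes of small subunit assembly included the only nucleolar gene past the fold. RRP12 (ENSG00000052749, chromosome 10, 97356358 to 97426076) encodes a factor in the maturation and export of pre-ribosomes. It was at 71.9 CPM with PBS and 192 with CBC in MIA PaCa-2 and at 131 and 161 CPM in PANC-1. The log2 fold changes were 1.42 (1.34 to 1.5) and 0.30 (0.23 to 0.37), both above 0 and apart from each other by more than counting error. Across lines the log2 fold change was 0.87 with an SE of 0.29 (adjusted p = 0.143, edgeR quasi-likelihood test). UTP20, a large scaffold of the early precursor, had the lowest mean change, at 83.5 and 64.9 CPM and at 121 and 92.2 CPM (-0.36 and -0.40). WDR43, UTP4 and NOP14, components of the early particle, the RNA acetyltransferase NAT10, and BYSL, a late assembly factor, ranged from -0.17 to 0.26 in MIA PaCa-2 and from -0.55 to -0.26 in PANC-1. BYSL alone of these 5 had a value above 0 in MIA PaCa-2.

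All 8 genes of large subunit assembly had log2 fold changes below 0 in PANC-1, from -0.89 to -0.04, while 5 of 8 were above 0 in MIA PaCa-2. BOP1 and PES1 encode partners in the PeBoW complex, which processes the precursor of the large subunit's RNA, and they stood at the ends of the range. BOP1 was at 225 CPM with PBS and 178 with CBC in MIA PaCa-2 and at 88.2 and 47.5 CPM in PANC-1, with log2 fold changes of -0.34 (-0.40 to -0.28) and -0.89 (-1.0 to -0.79). PES1 was at 175 and 239 CPM and at 121 and 118 CPM, with log2 fold changes of 0.45 (0.39 to 0.51) and -0.04 (-0.12 to 0.03). WDR12, the other member of the complex, had values of -0.47 and -0.42. The 3 partners of this complex thus had unlike pairs of values. BOP1 was at -0.61 across lines with an SE of 0.23 (adjusted p = 0.176, edgeR quasi-likelihood test). NOP2, an RNA methyltransferase, and PPAN, NOP16, RRS1 and LAS1L, further factors of this subunit, ranged from -0.20 to 0.51 in MIA PaCa-2 and from -0.82 to -0.27 in PANC-1. PPAN is the lowest of all 35, with 120 to 363 counts. Of its exon bases, 49.2% overlap other genes on the same strand, P2RY11 and a readthrough transcript that had 0 counts in every library. How reads in shared exons were counted is not given in the sources used here. The 0 counts therefore do not show that the readthrough was absent, and the values and rank of PPAN are uncertain. For NOP2, 54.4% of the exon bases overlap another gene on the same strand, so its values are uncertain. That overlap was taken from a gene annotation other than the one used for counting, and may not apply to the counts.

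The last 6 genes encode abundant nucleolar proteins with several roles. NCL, nucleolin, had the lowest mean change, at 1689 and 1487 CPM in MIA PaCa-2 and at 1204 and 713 CPM in PANC-1, log2 fold changes of -0.18 (-0.20 to -0.16) and -0.76 (-0.78 to -0.73). Across lines NCL was at -0.46 with an SE of 0.19 (adjusted p = 0.221, edgeR quasi-likelihood test). MYBBP1A, a regulator of ribosomal RNA synthesis, had the highest mean change, at 306 and 343 CPM and at 110 and 84.8 CPM (0.17 and -0.38). NPM1, nucleophosmin, a chaperone of the nucleolus, was at 2007 and 1874 CPM and at 1290 and 1144 CPM (-0.10 and -0.17), and counts of its 49 annotated pseudogenes reached 3.26% of its own. NCL and NPM1 are of like abundance, yet NCL had the lower value in PANC-1 by a wide margin. The helicase DDX21, the GTP-binding protein GNL3 and LYAR, a growth-linked nucleolar protein, ranged from -0.20 to 0.18 in MIA PaCa-2 and from -0.72 to -0.25 in PANC-1.

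**Figure D3:**
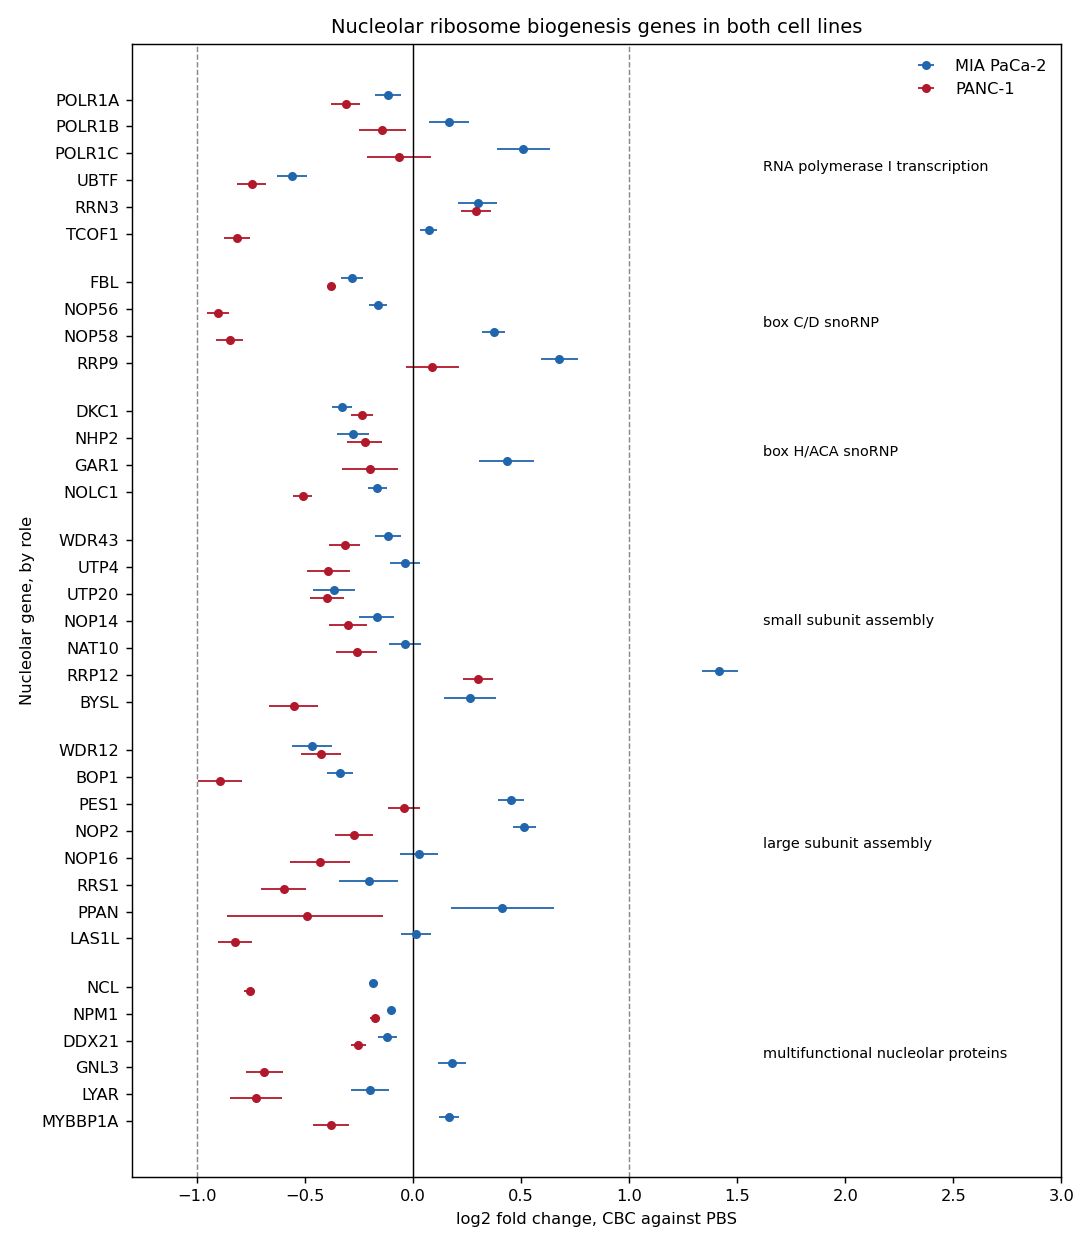
Log2 fold change (x axis) of the 35 nucleolar genes, ordered by role (y axis), in MIA PaCa-2 (blue) and PANC-1 (red), with exact 95% counting intervals as bars and dashed lines at a log2 fold change of 1 and -1. RRP12 in MIA PaCa-2, at 1.42, is the only point beyond a dashed line, and 32 of 35 red points lie below 0.

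Between the lines, the order was nearly always the same. The log2 fold change was higher in MIA PaCa-2 than in PANC-1 for 32 of the 35 nucleolar genes, beside 49.2% of the 12502 genes examined in both lines, and the 3 exceptions were DKC1, NHP2 and WDR12. The count was 32 under each of 6 other scalings, prior counts or values. The median difference between the lines was 0.46 on the log2 scale. The same order was found for 23 of the 25 replication and mitosis genes (92.0%, median difference 0.64) and for 63.3% of 30 MYC targets outside the nucleolus, so it was not particular to nucleolar genes. Values were below 0 in both lines for 19 of the 35 genes (35.1% of all genes), above 0 in both for 3 (34.8% of all), RRN3, RRP9 and RRP12, and above 0 in MIA PaCa-2 and below 0 in PANC-1 for 13 (13.8% of all). None of the 35 had the reverse pattern, beside 16.3% of all genes. In 9 of the 13 the counting intervals also lay on opposite sides of 0, beside 5.99% of all genes, with the reservation that the intervals are narrower for abundant genes. Across the 35 genes the changes of the lines had a Pearson's r of 0.526 and a Spearman's rho of 0.418, beside 0.592 and 0.553 over all genes. The points of a line share its libraries and scaling, so this is a description. A test of the difference between lines was not possible with 1 library per line and condition.

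**Figure D4:**
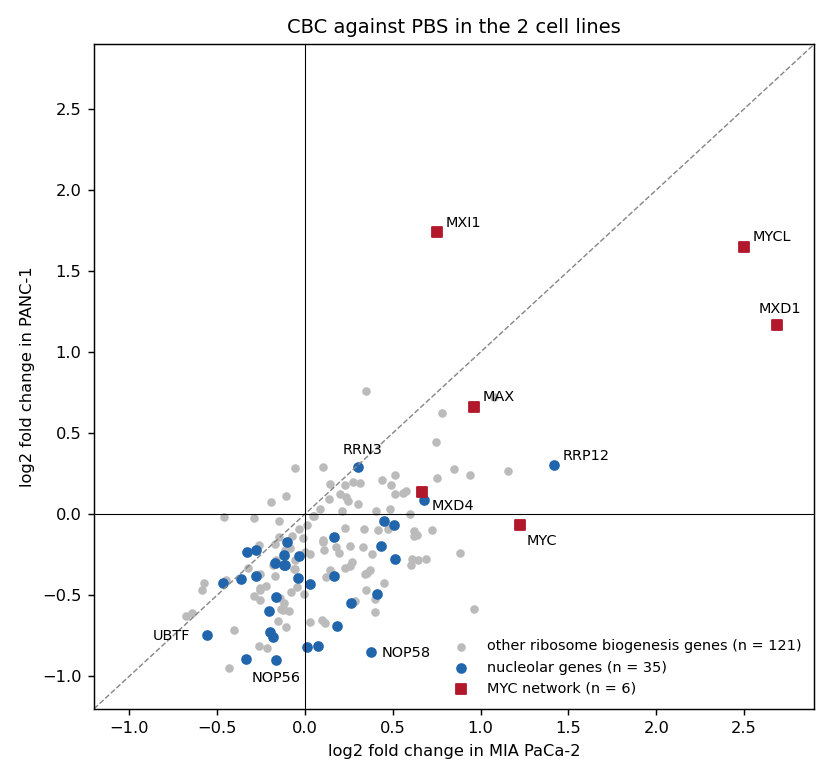
Log2 fold change in MIA PaCa-2 (x axis) against PANC-1 (y axis) for nucleolar genes (blue, 35), MYC network genes (red squares, 6) and other ribosome biogenesis genes (grey, 121). The dashed line marks equal change, and 32 of 35 blue points and 105 of 121 grey points lie below it.

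Lists of further ribosome biogenesis genes, 121 genes in all, gave the same order. The change was higher in MIA PaCa-2 for 105 of them (86.8%), with medians of 0.11 and -0.23. In the edgeR quasi-likelihood test 0 of the 121 passed, beside 4.71% of all genes. At an unadjusted p under 0.05 in that test there were 12 (9.92%, beside 20.9% of all genes). In PANC-1 0 were past the fold, beside 14.7% of all genes. In MIA PaCa-2 2 were past the fold and higher, beside 11.5% of all genes. They were SIRT7, a deacetylase that promotes RNA polymerase I activity (1.08 and 0.72, adjusted p = 0.0633), and ZNF622, a factor of the large subunit (1.16 and 0.27, adjusted p = 0.205), with adjusted p-values from that edgeR test. The 12 further RNA polymerase I genes had medians of 0.08 and -0.06, the 12 further snoRNP genes 0.11 and -0.32, the 47 small subunit genes 0.17 and -0.25, and the 50 large subunit genes 0.06 and -0.18. Of the 3 genes with the largest mean change in each list, POP1, a protein of RNase MRP (-0.43 and -0.95), NOL11 of the small subunit processome (-0.64 and -0.61), the helicase RUVBL2 (-0.26 and -0.81) and POLR1E, a polymerase subunit (-0.59 and -0.47), had values below 0 in both lines. The others, SIRT7, TAF1D, RPP38, DDX49, PDCD11, ZNF622, EFL1 and NOP53, were above 0 in both.

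The 79 cytosolic ribosomal protein genes had medians of -0.04 and 0.03. In either line 0 were past the fold, beside 20.5% and 14.7% of all genes. In the edgeR quasi-likelihood test 0 passed, beside 4.71% of all genes, and 1 had an unadjusted p under 0.05, beside 20.9%. Here the change was higher in MIA PaCa-2 for 24 of 79 genes (30.4%). The values of the ribosomal proteins and of the nucleolar genes that assemble them therefore did not share the order of the lines.

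The median of 30 MYC targets outside the nucleolus was -0.33 in MIA PaCa-2 and -0.44 in PANC-1. MYC itself was at 2.33 times its control in the first of these lines. The edgeR quasi-likelihood test called 4 of the 30, beside 4.71% of all genes tested. LDHA, the lactate dehydrogenase, fell from 1001 to 298 CPM in MIA PaCa-2 and from 852 to 323 CPM in PANC-1 (log2 fold change -1.56 across lines, SE 0.18, adjusted p = 0.00865). RCC1, a chromatin-bound exchange factor, fell from 248 to 146 CPM and from 122 to 47.1 CPM (-1.06, SE 0.23, adjusted p = 0.0457). EIF4EBP1, a brake on translation, and the cyclin CCND2 rose (adjusted p of 0.0419 and 0.0122). CCND2 had 1 count with PBS and 400 with CBC in MIA PaCa-2, and 2 and 56 in PANC-1. It was examined only through its CBC libraries, where it was high, so the filter itself favoured a difference. CDC25A, a cell cycle phosphatase, was at 44.2 and 23.7 CPM and at 33.5 and 5.12 CPM and did not pass (adjusted p = 0.0659). At an unadjusted p under 0.05 there were 16 (53.3%, beside 20.9% of all genes), 14 of them below 0. Several of these are also genes of dividing cells, and a list of 25 replication and mitosis genes had medians of -1.3 and -1.99. Of these 25, 23 fell across lines, beside 2.45% of all genes tested. The part of that list's change in the values of the MYC targets was not tested.

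**Figure D5:**
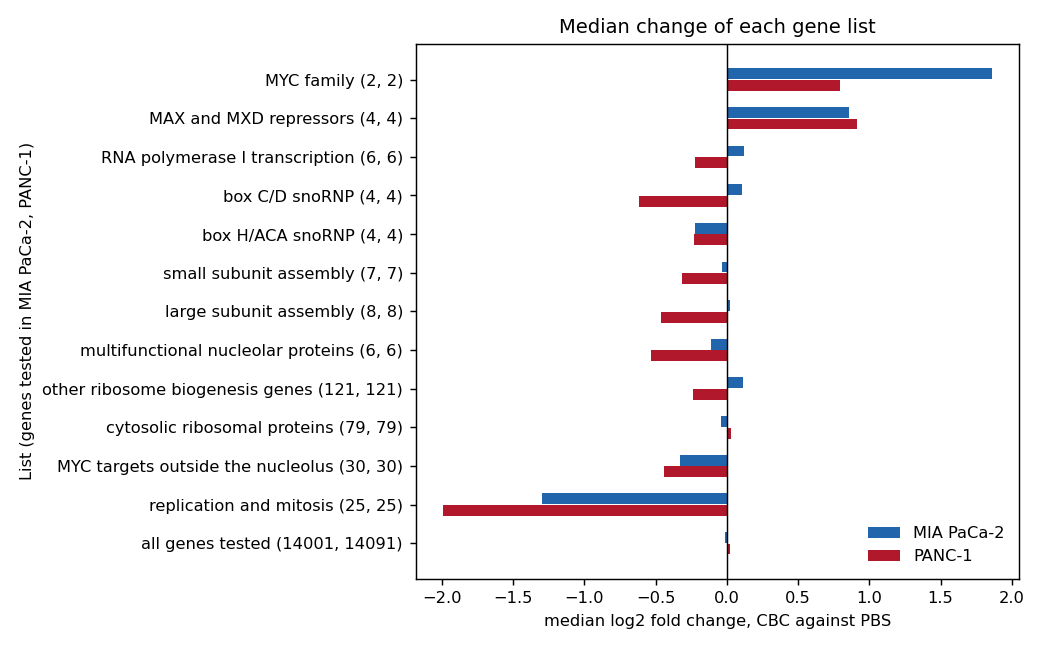
Median log2 fold change with CBC (x axis) of each gene list (y axis, with the number of genes examined in MIA PaCa-2 and PANC-1), for MIA PaCa-2 (blue) and PANC-1 (red). Nucleolar roles have medians between -0.22 and 0.12 in MIA PaCa-2 and between -0.61 and -0.23 in PANC-1, while replication and mitosis genes have -1.3 and -1.99.

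Some features of sequence and annotation were set beside the changes. The E-box is not independent of the choice of genes, as nucleolar genes are known MYC targets. Nucleolar genes with an E-box in the window had medians of -0.04 in MIA PaCa-2 and -0.32 in PANC-1, those without it -0.11 and -0.37, and the 6 with no window -0.05 and -0.71. The genes with and without the motif thus differed little in either line. Of the 35 genes, 8 carry annotated small nucleolar RNAs within their own boundaries (22.9%), beside 1.71% of the 12638 expressed protein-coding genes. They are POLR1C, NOP56, NOP58, DKC1, WDR43, PPAN, NCL and GNL3. Their medians were 0.03 and -0.59, and those of the other 27 were -0.04 and -0.38. The small nucleolar RNAs themselves lack the poly(A) tail that the library selected and are not described here.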

How the data were processed

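The authors trimmed reads with cutadapt 2.7 below a quality of 20, aligned them to GRCh38 with STAR, counted them with HTSeq on Ensembl release 89 and scaled them with TMM in edgeR. Aligner version and counting strand are not given in the sources used here. The deposited raw counts per gene were used. The deposited signal per library, CPM on TMM-scaled library sizes, served as an alternative.

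Fold changes on the log2 scale were computed in edgeR 4.0.16 under R 4.3.3, with a prior count of 2 and TMM over the 4 libraries, and count ratio intervals (95%) from scipy 1.17.1. They cover counting error only. The quasi-likelihood test with cell line as block had 1 residual degree of freedom and a coefficient of biological variation of 23.0%. Both libraries of a line come from that line, and their deviations from treatment means correlated at 0.923. The labels name no repeated cultures, so the lines, each with its own control and dose, served as the replicates. The p-values rest on the spread between these libraries alone, which includes any difference in response between the lines. That spread was moderated over the genes tested, so an SE or p-value is not a measure of a gene's own difference between lines alone. The log2 fold changes of the lines differed by 0.007 for RRN3 (SE 0.20) and by 1.52 for MXD1 (SE 0.39). On simulated data for CBC against PBS over both lines, 94% of 200 genes changed 4-fold were recovered among 16765 tested, with 2.08% of calls false. Each changed gene was given the same change in both lines, with the same variation of 23.0% for every gene. These rates therefore do not cover genes whose response differs between the lines.

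Genes and lists were chosen with earlier results of these data known. The MYC network is named in full, roles of over 4 genes by their highest and lowest mean change and any call, and context lists by up to 3 genes of largest mean change at 10 CPM or more. Genes named beyond this (TCOF1, NPM1, WDR12, EIF4EBP1 and CCND2) were chosen after their values were seen. No motif lay in the windows of MYCL and MXD1, the genes that the rule for sequences covered, so other windows were printed. No promoter window was used for MYC, TCOF1, NOP58, NOLC1, RRP12, BOP1 and RRS1. Positions and lengths came from GENCODE 44. Alternatives changed the scaling, prior count, filter, values, block and tool (DESeq2 1.42.0).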

Additional observations from a re-analysis of the deposited data

Results flagged for a closer look

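In 9 nucleolar genes the counting intervals lay above 0 in MIA PaCa-2 and below 0 in PANC-1, a pattern that 5.99% of the 12502 genes examined in both lines had too. The intervals cover counting error only and are narrower for abundant genes. The difference between lines was not tested for any of them, as each line had 1 library per condition, and the CBC dose also differed. The log2 fold change in MIA PaCa-2 minus that in PANC-1 was 1.22 for NOP58, 0.90 for PPAN, 0.89 for TCOF1, 0.87 for GNL3, 0.81 for BYSL, 0.79 for NOP2, 0.63 for GAR1, 0.54 for MYBBP1A and 0.31 for POLR1B. In the NOP58 scaffold of box C/D particles the levels were 222 and 287 CPM in MIA PaCa-2 and 232 and 129 CPM in PANC-1. GNL3 was at 162 and 183 CPM and at 113 and 70.3 CPM, and BYSL at 43.8 and 52.6 CPM and at 62.1 and 42.4 CPM. NOP2, with 54.4% of its exon bases overlapping another gene on the same strand, was at 212 and 303 CPM and at 91.9 and 76.0 CPM. Its values and those of PPAN, with 49.2% of its exon bases overlapping other genes on that strand, are uncertain. POLR1B had the smallest difference, with 74.8 and 84.0 CPM and 57.9 and 52.4 CPM.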

How the results depend on the processing

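Scaling by library totals gave a median of -0.24 for all members in PANC-1 (against -0.31) and of -0.31 for the nucleolar genes there (against -0.38), and TMM within each line gave -0.41 for the latter. The members that passed across lines numbered 1 with DESeq2 size factors in edgeR (MYCL), 5 without the filter on low counts (MYCL, MAX, MXD1, MXI1 and RRP12), 4 in DESeq2 (MYCL, MAX, MXD1 and UBTF) and 2 with library totals. Without the replicate block the count was 0, as it was over all 16381 genes in edgeR, of which 354 had an unadjusted p under 0.05. Over all genes the settings called 567, 2063, 1371, 737 and 0 beside 771, and the cause was not tested. Adjusted p-values over these settings ran from 3.41e-05 to 1.0 for MYCL, from 1.14e-08 to 1.0 for MXD1 and from 0.114 to 1.0 for MYC. Leaving out a line leaves 1 library per condition and no test, so its values are those within the other line. The counts of members past the fold kept within 1.5 times under the settings run in each line, but library totals moved the changes of 17 of 41 members in MIA PaCa-2 and 12 in PANC-1 beyond their counting intervals, and TMM within each line those of 3 in PANC-1. NPM1 in MIA PaCa-2 went from -0.10 to -0.03 and POLR1A from -0.12 to -0.05. None of those moved was reversed, and MYC in PANC-1 was at 0.00 under library totals. Genes near the threshold are limited by having 1 library per condition, and depth limits MYCL in PANC-1.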

Other observations

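FBL was the nucleolar gene whose level differed most between the control libraries, and its neighbours on chromosome 19 did as well. Among 44 genes within 1 Mb of FBL, 30 had the higher control level in PANC-1, the median log2 ratio of PANC-1 to MIA PaCa-2 was 2.13, and 24 were over 4-fold higher. Of the other 776 genes examined on the chromosome, 26 were over 4-fold higher, with a median of -0.39. PAF1, of the elongation complex of RNA polymerase II, was at 68.7 CPM in the MIA PaCa-2 control and 1705 CPM in the PANC-1 control. MED29, a Mediator subunit, was at 60.1 and 1016 CPM. Both were named after their values were seen. DNA copies were not measured in these libraries.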
